A study of Mus musculus with 6 samples.

Results

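The calcitonin and adrenomedullin system is a family of peptide hormones and the receptors they share. Its 8 members described here were taken by gene symbol from the 56748 genes of the deposited tables. They are the ligand genes *Calca*, *Calcb*, *Adm* and *Adm2*, the receptor genes *Calcr* and *Calcrl*, and the accessory protein genes *Ramp1* and *Ramp3*. The rule uses names and no measured value. RNA from the uteri of 3 control and 3 *Gp130* ecKO females was sequenced at 1600 h on day 4 of pregnancy, before embryo attachment, to learn what the uterus loses or gains without *Gp130* in its epithelium. All females were labelled C57BL/6 (C57BL/6J in the methods), sexually mature and mated with fertile wildtype males. *Gp130* ecKO females carried 1 *Ltf*-iCre allele, which drives Cre from the lactoferrin locus, and were homozygous for floxed *Gp130*, the shared signal receptor of the interleukin 6 family. Control females are labelled WT, and the methods of the study describe them as floxed without iCre or as wildtype, so some controls may have carried the floxed allele. Macrophages and neutrophils are among the cells outside the epithelium for which the paper gives *Ltf* expression. The RNA came from uterine tissue in which stroma, muscle, vessels and nerves lie beside the epithelium.

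Calcitonin and CGRP are made from the same gene, *Calca*, by a choice of exons, and *Calcb* codes for a second CGRP. Adrenomedullin and adrenomedullin 2, from *Adm* and *Adm2*, are related peptides that widen vessels. *Calcr* codes for the calcitonin receptor. *Calcrl* codes for a receptor that reaches the cell surface only with a receptor activity-modifying protein (RAMP). With RAMP1 it binds CGRP, and with RAMP2 or RAMP3 it binds adrenomedullin. RAMPs also turn the calcitonin receptor into amylin receptors. These receptors mainly raise cyclic AMP through the G protein Gs. In the rodent uterus, calcitonin is known as a progesterone-induced product of the glandular epithelium before implantation, and adrenomedullin acts on blood and lymphatic vessels.

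The 3 exons that tell these peptides apart are shown because the *Calca* count below adds its calcitonin and CGRP exons together, and because the CGRP exons of *Calca* and *Calcb* are much alike. They are the calcitonin and CGRP exons of *Calca*, at chr7:114232840-114233020 and chr7:114231678-114231834 on the minus strand, and the CGRP exon of *Calcb*, at chr7:114321210-114321369 on the plus strand of GRCm39. All are exon 4 of their GENCODE transcripts (Calca-202, Calca-201 and Calcb-201). Capitals mark the bases at which the 2 CGRP exons differ in their alignment, including bases present in *Calcb* alone.
Calca calcitonin coding exon: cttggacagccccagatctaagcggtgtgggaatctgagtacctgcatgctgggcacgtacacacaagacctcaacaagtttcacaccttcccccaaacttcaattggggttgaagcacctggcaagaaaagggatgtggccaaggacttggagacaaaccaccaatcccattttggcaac
Calca CGRP coding exon: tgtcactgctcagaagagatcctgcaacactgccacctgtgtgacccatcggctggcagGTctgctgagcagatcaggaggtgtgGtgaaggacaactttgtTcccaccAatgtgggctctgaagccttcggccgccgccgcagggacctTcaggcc
Calcb CGRP coding exon: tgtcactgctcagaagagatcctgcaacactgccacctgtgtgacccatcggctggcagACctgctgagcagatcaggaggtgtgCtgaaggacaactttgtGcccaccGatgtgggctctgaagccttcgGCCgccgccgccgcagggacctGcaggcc
The CGRP exons were identical at 151 of 157 aligned bases (96.2%), and that of *Calcb* held 3 more bases. The longest identical run was 59 bases, shorter than the 75-base reads. No stretch of 75 bases in the transcripts of any of the 8 members occurred in another gene, and all their expected counts were whole numbers in all uteri. The counts of *Calca* and *Calcb* were therefore not divided between them. A *Calca* count does not separate calcitonin from CGRP. The mean transcript length that RSEM gave *Calca*, which moves with the mixture of its 7 transcripts, was 815.88, 806.67 and 751.77 bases in controls 1, 2 and 3, compared with 799.16, 791.49 and 804.98 in *Gp130* ecKO 1, 2 and 3. These lengths overlapped between the groups.

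Total expected counts were 13960748 to 25906443 per uterus, with the lowest in control 3. Control 2 stood nearer to the *Gp130* ecKO uteri than the other controls did. The targeted gene, *Il6st* (*Gp130*), was at 452 to 678 CPM in controls and 349.8 to 388 CPM in *Gp130* ecKO uteri (log2 fold change −0.68, SE 0.21, adjusted p = 0.120 with the quasi-likelihood test of edgeR). CPM is edgeR's count scaled to library size, here after TMM normalization of the rounded counts. Of 16605 genes tested, 26 (0.157%) passed an adjusted p under 0.05 and a change over 2-fold, the call used below, and 4151 (25%) had an unadjusted p under 0.05. Nothing in the labels says that the uteri came from separate litters or days, and p-values measure only the spread between these uteri, which may in part be technical.

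No member was called with the quasi-likelihood test. Of the 8 members, 5 passed the filter on low counts, of which *Calca*, *Adm*, *Calcrl* and *Ramp1* were lower and *Ramp3* was higher on average in *Gp130* ecKO. *Calcrl* and *Ramp1* had an unadjusted p under 0.05, beside 12.9% of all tested genes in that direction. They were also the 2 members in which every *Gp130* ecKO uterus lay below every control, as did 15.6% of all tested genes. With the exact test and the likelihood ratio test of edgeR and with DESeq2, both were called lower, where 3.79%, 4.01% and 4.9% of all tested genes were. The median log2 fold change of the 5 members was −1.05, against −0.05 for all tested genes.

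**Figure D1:**
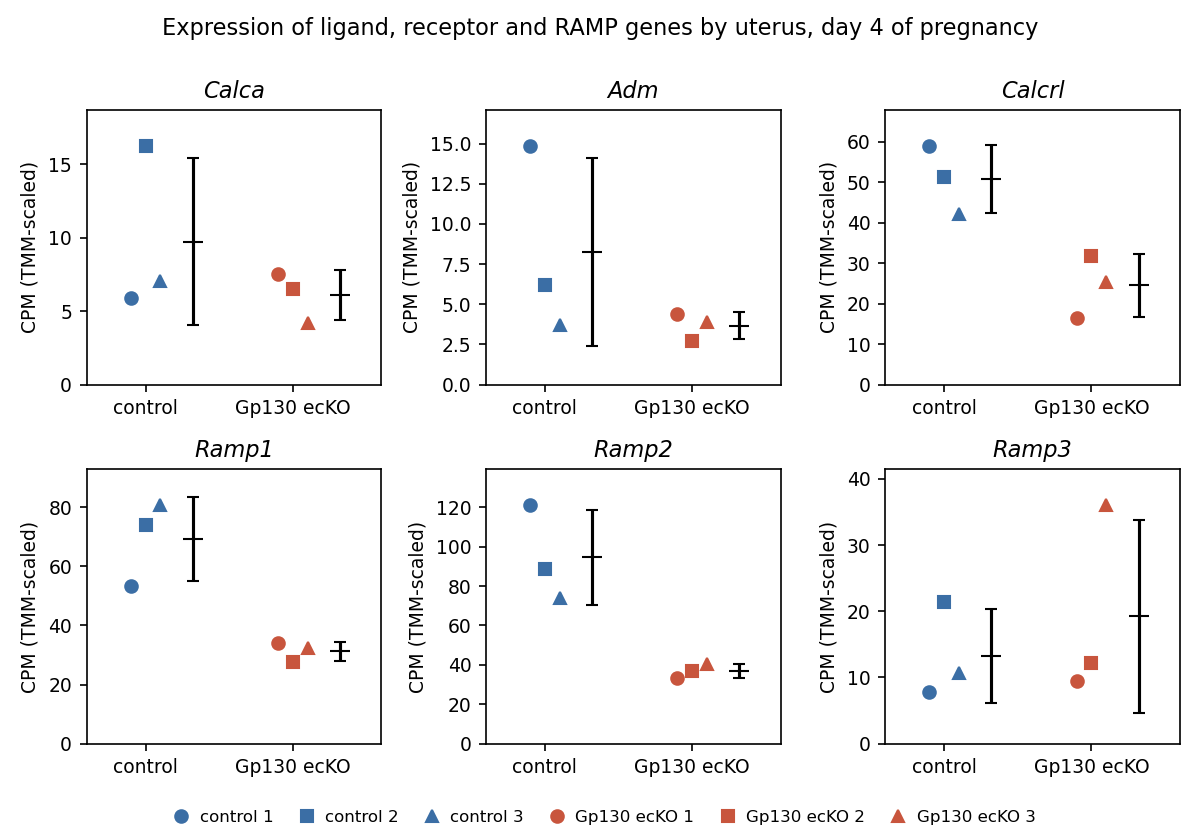
Each panel plots 1 gene in TMM-scaled CPM from 0, with 1 point per uterus in control (blue) and *Gp130* ecKO (red) and the mean ± SD of 3 uteri in black. The groups are apart for *Calcrl*, *Ramp1* and *Ramp2*, and overlap for *Calca*, *Adm* and *Ramp3*.

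Among the ligands, *Calca* (ENSMUSG00000030669) was at 5.91, 16.2 and 7.07 CPM in controls 1, 2 and 3, and at 7.50, 6.50 and 4.19 CPM in *Gp130* ecKO 1, 2 and 3. Control 2 stood above the other 5 uteri, among which the groups overlapped. The log2 fold change was −0.69 (SE 0.45, adjusted p = 0.3685 with the quasi-likelihood test), and it was −0.06 without control 2. The exact two-sided permutation test over the uteri gave p = 0.5, where 3 uteri against 3 cannot give less than 0.1. A lower *Calca* level in *Gp130* ecKO was thus not larger than the spread between the controls.

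*Adm* (ENSMUSG00000030790), the adrenomedullin gene, was at 14.8, 6.21 and 3.73 CPM in controls 1, 2 and 3. In *Gp130* ecKO 1, 2 and 3 it was at 4.39, 2.73 and 3.90 CPM. Control 1 was the highest, while control 3 lay within the *Gp130* ecKO values. The log2 fold change was −1.18 (SE 0.52, adjusted p = 0.210 with the quasi-likelihood test, exact permutation p = 0.3), and it was −0.43 without control 1. An antisense transcript, *Gm28863*, overlaps *Adm*, and whether strand was used in the counting is not given in the sources used here.

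The other ligands were close to absent from the counts. *Calcb* (ENSMUSG00000030666) had 3, 2 and 0 counts in the controls, against 1, 0 and 0 counts in *Gp130* ecKO uteri. *Adm2* (ENSMUSG00000054136) had 1, 0 and 0 counts in the controls and 0, 0 and 3 in *Gp130* ecKO uteri. None of these exceeded 3 counts, the number that a count of 0 allows, which corresponds to 0.115 to 0.200 CPM at the depth of these libraries. These limits cover counting error only. A difference was not detectable at this depth, and no fold is given.

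The receptors differed widely in level. *Calcr* (ENSMUSG00000023964), the calcitonin receptor gene, had no count in any control and 2, 0 and 0 counts in *Gp130* ecKO uteri, again below what can be told from 0. *Calcrl* (ENSMUSG00000059588), the receptor for CGRP and adrenomedullin, was at 59.0, 51.3 and 42.1 CPM in controls 1, 2 and 3. In *Gp130* ecKO 1, 2 and 3 it was at 16.4, 31.9 and 25.4 CPM. All *Gp130* ecKO uteri were below all controls, with *Gp130* ecKO 1 the lowest. The mean was 50.8 ± 8.47 CPM in control and 24.6 ± 7.77 CPM in *Gp130* ecKO uteri (SD, n = 3 each). Its log2 fold change was −1.05 (SE 0.27, adjusted p = 0.0956 with the quasi-likelihood test), and the exact permutation p was 0.1, the smallest possible. It ranged from −1.28 to −0.82 with each uterus left out in turn. With the exact test of edgeR the adjusted p was 0.0197, with its likelihood ratio test 0.0185 and with DESeq2 0.0150, so the call depends on the test.

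On the deposited TPM scale, which also divides by transcript length, *Calcrl* was at 17.33, 17.11 and 14.43 TPM in controls, against 6.10, 14.87 and 8.24 TPM in *Gp130* ecKO uteri. On that scale *Gp130* ecKO 2 lay above control 3, and the groups overlapped. The mean length that RSEM gave *Calcrl* was 4268.89, 3964.84 and 4114.85 bases in controls 1, 2 and 3, compared with 3814.81, 3305.67 and 3881.61 in *Gp130* ecKO 1, 2 and 3. All *Gp130* ecKO lengths were below all control lengths, and *Gp130* ecKO 2 had the shortest. The tables list 3 transcripts of the gene, and which of them moved with the length was not tested.

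Of the RAMPs, *Ramp1* (ENSMUSG00000034353), the CGRP partner of the receptor, had the smallest p of all members. It was at 53.4, 74.0 and 80.7 CPM in controls 1, 2 and 3, and at 33.9, 27.7 and 32.2 CPM in *Gp130* ecKO 1, 2 and 3. The groups did not overlap, and the *Gp130* ecKO uteri lay close together. The mean was 69.4 ± 14.2 CPM in control and 31.3 ± 3.19 CPM in *Gp130* ecKO uteri (SD, n = 3 each). Its log2 fold change was −1.15 (SE 0.20, adjusted p = 0.0635 with the quasi-likelihood test), with an exact permutation p of 0.1. The adjusted p was 0.000952 with the exact test of edgeR, 0.000903 with its likelihood ratio test and 0.000205 with DESeq2. The quasi-likelihood test gave an adjusted p of 0.0521 without control 2 and of 0.125 to 0.180 with each other uterus left out.

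*Ramp3* (ENSMUSG00000041046), a partner of the adrenomedullin receptor, went the other way on average but without a stable direction. It was at 7.81, 21.3 and 10.7 CPM in controls 1, 2 and 3, and at 9.49, 12.2 and 36.0 CPM in *Gp130* ecKO 1, 2 and 3. The highest value was that of *Gp130* ecKO 3, and the next that of control 2, and neither group stood apart. On the log2 scale the difference was 0.53 (SE 0.58, adjusted p = 0.586 with the quasi-likelihood test, exact permutation p = 0.6). Without *Gp130* ecKO 3 it was −0.27.

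*Ramp2* is not a member but completes the adrenomedullin receptor. It was at 121, 88.7 and 73.9 CPM in controls 1, 2 and 3, and at 33.4, 36.7 and 40.5 CPM in *Gp130* ecKO 1, 2 and 3. The groups did not overlap, and its log2 fold change was −1.36 (SE 0.22, adjusted p = 0.0548 with the quasi-likelihood test, 0.0367 without control 2 and 0.116 to 0.180 with each other uterus left out). It was called lower with the exact test of edgeR (adjusted p = 0.000121), its likelihood ratio test (0.000114) and DESeq2 (3.38e-05). Its counts are less certain than those of the members. They were not all whole, and 24.8% of the 75-base stretches of its transcripts also occur in *Vps25*, which overlaps it on the same strand.

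**Figure D2:**
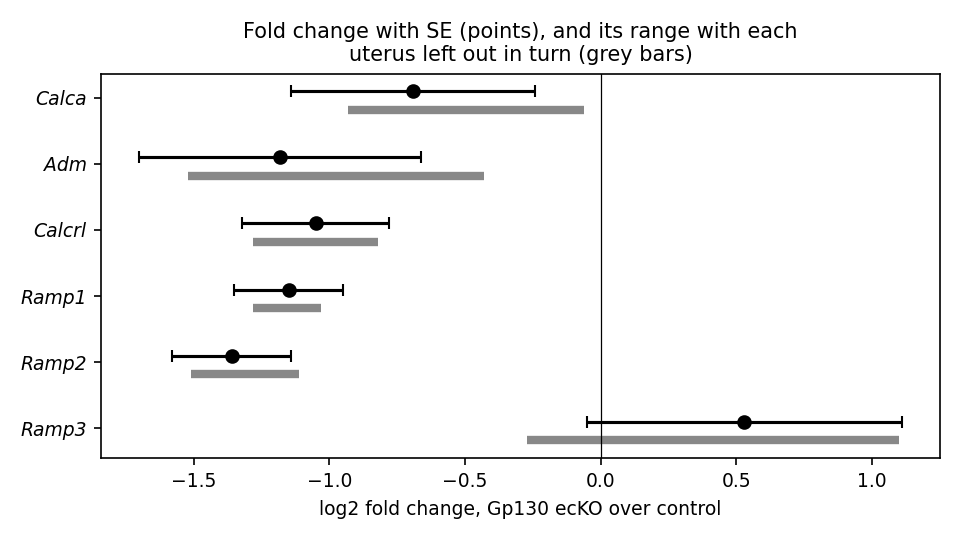
Points give the log2 fold change of *Gp130* ecKO over control from edgeR's fit, with bars of 1 SE, and grey bars give its range when each of the 6 uteri was left out in turn. *Calcrl*, *Ramp1* and *Ramp2* keep to the left of 0 by more than 0.8, *Calca* and *Adm* reach −0.06 and −0.43, and *Ramp3* crosses 0.

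Levels can be set side by side between genes on the TPM scale. In controls *Ramp1* was the highest member at 40.7 ± 10.5 TPM (SD, n = 3). *Calca* at 17.7 ± 9.89 TPM, *Calcrl* at 16.3 ± 1.61 TPM and *Ramp3* at 14.8 ± 7.89 TPM (SD, n = 3 each) followed and did not differ beyond their spread. *Adm* was at 8.86 ± 6.38 TPM (SD, n = 3), also within reach of *Ramp3* and *Calca*. In *Gp130* ecKO uteri *Ramp3* was at 21.6 ± 14.4 TPM and *Ramp1* at 19.7 ± 1.74 TPM (SD, n = 3 each), no longer apart. *Calca* was at 11.7 ± 4.03 TPM, *Calcrl* at 9.74 ± 4.57 TPM and *Adm* at 4.03 ± 0.78 TPM (SD, n = 3 each).

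RAMP transcripts were more abundant than those of their receptor. Summed over the 3 RAMP genes, RAMP transcripts were at 229, 215 and 200.7 TPM in controls, against 92.3, 104 and 120.2 TPM in *Gp130* ecKO uteri. All *Gp130* ecKO sums were below all control sums. *Ramp3* made up 3.58%, 10.9% and 6.33% of that sum in controls 1, 2 and 3, compared with 12.0%, 15.0% and 31.6% in *Gp130* ecKO 1, 2 and 3. Its share was higher in every *Gp130* ecKO uterus than in any control, although its own level overlapped between the groups. Most of the sum is *Ramp2*, whose counts are the less certain ones. Without *Ramp2*, the ratio of *Ramp3* to *Ramp1* TPM was 0.281, 0.552 and 0.254 in controls, against 0.525, 0.774 and 2.13 in *Gp130* ecKO uteri, and the groups overlapped. The share of *Ramp2* was 68.7% to 83.7% in controls and 53.6% to 65.6% in *Gp130* ecKO uteri, and that of *Ramp1* overlapped (12.7% to 24.9% against 14.8% to 22.9%). Shares of a sum move together, and this breakdown was chosen after the values were seen, so it has no test.

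**Figure D3:**
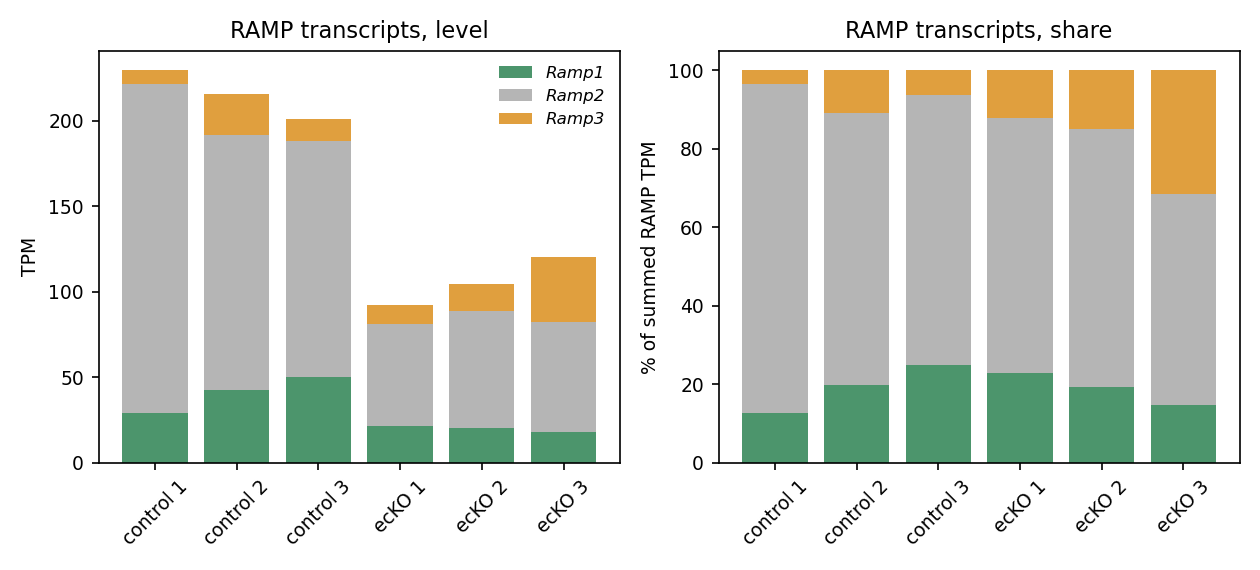
Bars stack the 3 RAMP genes for each uterus, in TPM on the left and as a percentage of their summed TPM on the right. The sums of *Gp130* ecKO uteri (92.3 to 120.2 TPM) are below those of controls (200.7 to 229 TPM), and the *Ramp3* share is highest in *Gp130* ecKO 3.

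Markers of cell types were measured beside the members, because in RNA of whole tissue fewer cells of a type and less RNA per cell cannot be told apart. Markers of blood endothelium, where *Calcrl* and *Ramp2* are known to be expressed, had summed levels of 521 to 1202 CPM in controls and 256 to 447 CPM in *Gp130* ecKO uteri. All 8 of them were lower on average, 7 with an unadjusted p under 0.05 and 0 called, and their log2 fold changes ran from −1.62 (*Egfl7*) to −0.68 (*Vwf*) with a median of −1.27. Per 1000 CPM of these markers, *Calcrl* was at 49.1, 65.7 and 80.7 CPM in controls 1, 2 and 3, and at 64.0, 71.3 and 63.2 CPM in *Gp130* ecKO 1, 2 and 3. The groups then overlapped, and the log2 ratio of their means was 0.02. In CPM, the 6 uteri stood in the same order for *Calcrl* as for the summed markers. *Ramp2* overlapped in the same way, with a log2 ratio of means of −0.18. *Ramp3* overlapped too, with a log2 ratio of means of 1.51.

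*Ramp1* did not follow the endothelial markers from uterus to uterus. Among controls it was lowest in control 1, where the markers were highest, and highest in control 3, where they were lowest. Per 1000 CPM of the markers it ranged from 44.4 to 155 CPM in controls and from 62.1 to 132 CPM in *Gp130* ecKO uteri. Stromal markers were also lower (6 of 6, 5 with an unadjusted p under 0.05 and 0 called), at 2429 to 2844 CPM in controls and 1203 to 1732 CPM in *Gp130* ecKO uteri. Per 1000 CPM of stromal markers *Ramp1* was at 19.8, 26.0 and 33.2 CPM in controls, against 28.2, 17.7 and 18.6 CPM in *Gp130* ecKO uteri, again with overlap. *Calcrl* per stromal marker CPM overlapped as well (log2 ratio of means −0.24), so its overlap was not particular to the endothelial markers, while *Ramp2* stayed lower in every *Gp130* ecKO uterus (−0.52). *Ramp3* per 1000 CPM of stromal markers was at 2.90, 7.50 and 4.39 CPM in controls, against 7.89, 7.77 and 20.8 CPM in *Gp130* ecKO uteri, which did not overlap (log2 ratio of means 1.3). These ratios were chosen after the values were seen, and the part of either cell type in the levels of *Calcrl*, *Ramp1* and *Ramp3* was not tested.

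**Figure D4:**
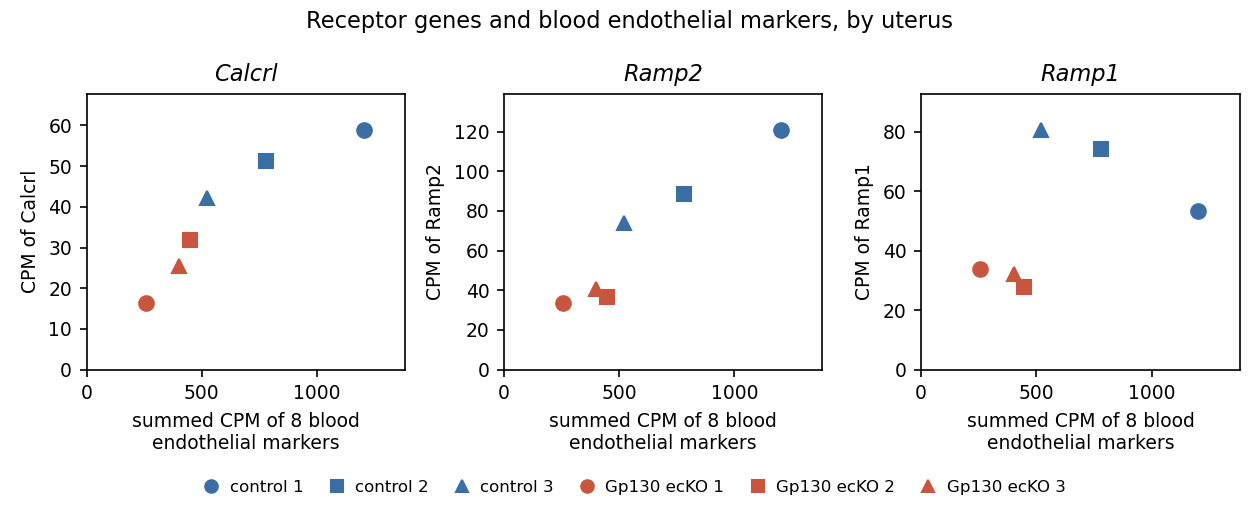
Each point is 1 uterus, with the summed CPM of the 8 blood endothelial markers on the horizontal axis and the CPM of the gene on the vertical axis, both from 0. The 6 uteri stand in the same order for *Calcrl* as for the markers, and for *Ramp2* with *Gp130* ecKO 2 and 3 exchanged, while *Ramp1* in the 3 controls is lowest where the markers are highest.

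Summed epithelial markers moved the other way, at 1920 to 3146 CPM in controls and 4075 to 5717 CPM in *Gp130* ecKO uteri. Of these 8 markers, 6 were higher on average, 3 of them with an unadjusted p under 0.05, 2 were lower and 0 were called. Their log2 fold changes ran from −0.34 (*Prom1*) to 2.19 (*Krt19*). Per 1000 CPM of these markers *Calca* was at 1.88, 5.63 and 3.68 CPM in controls, against 1.31, 1.59 and 0.966 CPM in *Gp130* ecKO uteri. All *Gp130* ecKO values were then below all control values, unlike those of *Calca* alone. The same held for *Adm*, *Calcrl*, *Ramp1* and *Ramp2* per epithelial marker CPM (log2 ratios of means −1.92, −1.82, −2.07 and −2.15), so the separation is not particular to *Calca*. *Ramp3* per epithelial marker CPM overlapped between the groups (log2 ratio of means −0.25). Per stromal and per blood endothelial marker CPM the *Calca* groups overlapped, with log2 ratios of means of 0.24 and 0.47. Whether these markers stand for the number of epithelial cells or for their keratin RNA was not tested.

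Summed markers of lymphatic endothelium, smooth muscle and macrophages overlapped between the groups. Lymphatic endothelial markers summed to 65.3 to 203 CPM in controls and 54.4 to 115 CPM in *Gp130* ecKO uteri (5 of 5 lower, from −0.85 for *Pdpn* to −0.18 for *Prox1*). Per 1000 CPM of these markers *Adm* was at 73.2, 73.1 and 57.2 CPM in controls, against 48.8, 50.2 and 33.8 CPM in *Gp130* ecKO uteri. These values did not overlap (log2 ratio of means −0.62), while *Calca*, *Calcrl*, *Ramp1*, *Ramp3* and *Ramp2* overlapped. That ratio was chosen after the values were seen, and the part of lymphatic vessels in the *Adm* level was not tested. Smooth muscle markers summed to 575 to 2702 CPM and 478 to 2822 CPM (6 of 6 lower, from −0.64 for *Smtn* to −0.19 for *Myh11*), with a wide range within both groups. Macrophage markers summed to 107 to 149.8 CPM and 62.4 to 119 CPM (4 of 5 lower, from −1.28 for *Mrc1* to 0.39 for *Cd68*). No marker of these 3 lists was called. Of nerve markers, relevant because sensory fibres carry CGRP, *Prph* had 176, 16 and 31 counts in controls, against 5, 2 and 2 in *Gp130* ecKO uteri. *Tubb3* had 37, 27 and 21 counts in controls, against 1, 5 and 10 in *Gp130* ecKO uteri. In CPM both were below all controls in every *Gp130* ecKO uterus but were not called (log2 fold changes −4.66 and −2.54, adjusted p = 0.0796 and 0.0861 with the quasi-likelihood test). These counts are low, and control 1 stood far above the other uteri for *Prph*, so the size of these folds is uncertain. *Sox10* and *Scn10a* had at most 2 counts in a uterus. The part of nerve in the *Calca* level was not tested.

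Genes that act with the members were described from 4 lists, and none of their genes was called with the quasi-likelihood test. In the list of receptor partners and family outside the members, 4 of 5 genes were tested. All 4 were lower on average, with a median log2 fold change of −0.52, but only *Ramp2* had an unadjusted p under 0.05. *Iapp*, the amylin gene, had no count. *Ackr3*, a scavenging receptor of adrenomedullin, was at 27.0, 30.8 and 65.0 CPM in controls, against 24.1, 43.6 and 16.6 CPM in *Gp130* ecKO uteri, which overlapped (log2 fold change −0.54, SE 0.45, adjusted p = 0.473 with the quasi-likelihood test).

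Of the 12 tested genes for peptide processing and breakdown, 8 were lower and 4 higher, 5 and 2 of them with an unadjusted p under 0.05, and the median was −0.54. *Pam*, which amidates the end of these peptides, was at 308, 134 and 136 CPM in controls, against 65.0, 70.9 and 88.4 CPM in *Gp130* ecKO uteri. These groups did not overlap (log2 fold change −1.37, SE 0.35, adjusted p = 0.0941 with the quasi-likelihood test). The endothelin-converting enzyme gene *Ece1* had a log2 fold change of −1.28 (adjusted p = 0.0983) and the carboxypeptidase gene *Cpd* one of 0.69 (adjusted p = 0.102).

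Of 23 tested genes of G protein and cyclic AMP signalling, 15 were lower and 8 higher, 5 and 2 of them with an unadjusted p under 0.05, with a median of −0.23. The smallest p-values were those of *Crem*, a cyclic AMP-responsive transcription factor (−1.50, adjusted p = 0.0821), *Adcy4*, an adenylyl cyclase (−1.53, adjusted p = 0.101), and *Prkar2b*, a regulatory subunit of protein kinase A (−1.13, adjusted p = 0.112). Hypoxia-inducible genes were described because *Adm* is one of them, and 4 of 10 were higher and 6 lower, with a median of −0.12. *Hif1a*, the gene of a hypoxia-inducible factor, had a log2 fold change of 1.41 (adjusted p = 0.0648 with the quasi-likelihood test). *Slc2a1*, a glucose transporter gene, had one of 0.99 (adjusted p = 0.127) and *Ndrg1* one of −2.17 (adjusted p = 0.126).

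The letters of 3 short motifs were searched on both strands of 8 promoter windows of 7 members (*Calcr* has 2), from 250 bases before to 50 after the gene start. The sequences came from RefSeq on GRCm38.p6, and each occurred once on GRCm39. These were the STAT letters TTCNNNGAA, the cyclic AMP response element TGACGTCA and the hypoxia core ACGTG. None of them was in any of the 8 windows, against 8.3%, 1.8% and 19.6% of 32851 promoters. That says only that these letters are not in these windows.

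Across the 6 uteri, controls and *Gp130* ecKO together, *Calcrl* correlated with *Ramp2* at r = 0.92 and with *Ramp1* at r = 0.70 in log2(CPM + 0.5). *Ramp3* correlated with no other gene of the system above −0.03. The difference between the groups enters these values, which are given as a description. Of 14762 genes compared over the 6 uteri, those most like *Calcrl* were *Nr5a2*, *Efr3b* and *BC028528* (r = 0.996 each), and those most like *Ramp1* were *Lrrtm2* (r = 0.984), *Limch1* (r = 0.984) and *E530011L22Rik* (r = 0.979). *Fbln1* (r = 0.995), *Cybrd1* (r = 0.995) and *Bri3* (r = 0.983) were most like *Adm*, *Gm4815* (r = 0.975), *Sema6a* (r = 0.966) and *Fam168a* (r = 0.956) most like *Calca*, and *Mrpl32* (r = 0.995), *Ptrhd1* (r = 0.980) and *Gm16845* (r = 0.978) most like *Ramp3*. With 6 points and so many genes, high values of r occur readily.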

How the data were processed

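Poly(A) RNA from 3 control and 3 *Gp130* ecKO uteri was sequenced from strand-specific libraries as single reads of 75 bases. The authors processed reads with fastp 0.23.2, SortMeRNA, STAR 2.7.10a on GRCm39 and RSEM 1.3.3, and deposited a gene table for each uterus that holds the expected count, the TPM and the FPKM. In the deposited TPM and FPKM, length and depth are already divided out. TPM was used for levels between genes and FPKM was not used. The annotation version and strand setting are not given in the sources used here.

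Symbols were taken from GENCODE M39 on GRCm39, which named 56017 of 56748 identifiers. Exons were read from that genome, and promoters came from RefSeq. Rounded expected counts were fitted with edgeR 4.0.16 under R 4.3.3 (filterByExpr, TMM, quasi-likelihood F test without the legacy setting), with Benjamini-Hochberg adjustment over 16605 genes. SE was obtained by dividing the log2 fold change by √F. Single genes were also compared in scipy 1.17.1 by permuting the uteri exactly (two-sided, on log2(CPM + 0.5)). Alternatives were DESeq2 1.42.0, other edgeR tests, scalings and filters, unrounded counts, a replicate block, and each uterus left out. Totals were 13960748 to 25906443 counts, lowest in control 3. No pair of libraries was nearly identical. The analysis was tested on simulated data.

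Named are all members, *Il6st*, *Ramp2*, *Ackr3*, the 3 genes of smallest p in each other pathway list, the highest and lowest marker of each list and the 3 genes most like each member. *Ltf* is named in addition, as the locus of the Cre. It was at 75.6, 62.7 and 8.27 CPM in controls, against 13.8, 281 and 245 CPM in *Gp130* ecKO uteri. Its log2 fold change was 1.88 (SE 1.07, adjusted p = 0.308 with the quasi-likelihood test). *Iapp*, *Vps25*, *Gm28863*, *Sox10*, *Scn10a* and *Tubb3* were named after their values were seen. The summed nerve markers are not reported here. The members and lists were chosen with earlier results of these data known.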

Additional observations from a re-analysis of the deposited data

How the results depend on the processing

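Counts of calls depended on the test. All genes called numbered 26 with the quasi-likelihood test, 7 with its legacy form, 1252 with the exact test, 1317 with the likelihood ratio test, 1546 with DESeq2, 105 with no filter and 1 to 897 with each uterus left out, 897 being without control 2. Members called were 0, but 2 (*Calcrl* and *Ramp1*) with the exact test, the likelihood ratio test and DESeq2, and 0 in every other setting, each uterus left out included. The log2 fold change of *Calcrl* was −1.05, −1.05 and −1.03 in those 3 tests (adjusted p = 0.0197, 0.0185 and 0.0150), and that of *Ramp1* was −1.15, −1.15 and −1.13 (adjusted p = 0.000952, 0.000903 and 0.000205). With each uterus left out it ranged from −0.93 to −0.06 for *Calca*, −1.52 to −0.43 for *Adm*, −1.28 to −0.82 for *Calcrl*, −1.28 to −1.03 for *Ramp1* and −0.27 to 1.10 for *Ramp3*, whose sign reversed without *Gp130* ecKO 3 (−0.27, adjusted p = 0.752 from edgeR). The cause was not tested. *Il6st* passed the adjusted p alone only with DESeq2 (0.0346). Deviations of same-numbered uteri correlated at 0.104, 0.069 and −0.196, within the range of differently numbered uteri (−0.311 to 0.22). With 3 uteri per group, each centred on its group mean, these values cannot tell whether the numbers pair the uteri. With the replicate block 6 genes and no member were called, and the log2 fold change was −0.59 for *Calca*, −1.08 for *Calcrl*, −1.13 for *Ramp1* and 0.40 for *Ramp3*. Upper quartile scaling moved the median of all genes to −0.114 from −0.047. *Calcb*, *Adm2* and *Calcr* were limited by depth.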
